A study of Saccharomyces cerevisiae with 4 samples.

Results

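The 9 genes described here encode the enzymes and the dedicated activator of lysine synthesis in the budding yeast Saccharomyces cerevisiae. They were chosen by open reading frame name, with case ignored, from the 6211 rows of the series' value table, and all 9 had a value on every array. The study hybridised RNA of a wild-type strain and of a strain labelled GCN2c together on 4 two-colour arrays. Both strains were grown to log phase in rich YPD medium at 28 °C, and 50 mL cultures were taken at an absorbance (Ab660) of 0.6, with no treatment named. GCN2c is a mutant in the sample labels and an overexpressing strain in the series' design text. Parent strain, mating type and the nature of the GCN2c allele are not given in the sources used here. GCN2c RNA carried Cy5 on replicates 1 and 3, called the Cy5 arrays and given in that order, and Cy3 on replicates 2 and 4, called the Cy3 pair.

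Fungi make lysine by the alpha-aminoadipate route. It starts from 2-oxoglutarate and acetyl-CoA, lengthens the carbon chain to 2-oxoadipate, and turns aminoadipate into lysine by way of its semialdehyde and saccharopine. The semialdehyde also acts as co-inducer of the activator Lys14, and lysine inhibits the enzyme that opens the route. Gcn2 senses uncharged tRNA and phosphorylates eIF2, a translation initiation factor, and this favours translation of Gcn4, an activator of amino acid synthesis genes in many pathways.

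Each value is a deposited log ratio per open reading frame, taken to be log2 with GCN2c as numerator. Neither the base nor the numerator is stated in the labels, and with wild type as numerator every sign given here would be the opposite. Of the genes' values on replicates 2 and 4, 97.5% differed by a constant 0.004 to within 0.01, and for all 9 lysine genes the arrays differed by 0.003 or 0.004. The Cy3 pair was therefore averaged and counted as 1 sample, so n = 3, and no independent second array has GCN2c in Cy3. The mean of the 3 replicates was tested against 0 with limma over 6130 genes, and a gene is said to have risen or fallen at a Benjamini-Hochberg adjusted p under 0.05. GCN2 itself, the gene the strain is named for, gave -0.39 and 0.10 on the Cy5 arrays and -0.69 and -0.68 on the Cy3 pair (mean -0.33, limma adjusted p = 0.453), so its spot did not show the overexpression in the design text. GCN4 stood at 0.84 and 0.57 on the Cy5 arrays and 0.37 on both of the Cy3 pair, above 0 on every array, with an adjusted p of 0.180.

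Replicates 2 and 4 also stood apart in genes that differ between laboratory strains. Of 4 genes specific to alpha cells, the pheromone gene MF(ALPHA)1 was at 4.92 and 4.93 on replicates 2 and 4 but at -0.92 and -1.42 on replicates 1 and 3. The a-factor receptor gene STE3 was at 3.75 and 3.76 on replicates 2 and 4, at 0.17 on replicate 1, and had no value on replicate 3. MF(ALPHA)2 was at 1.68 and 1.69 on that pair and below 0 on the others, and the agglutinin gene SAG1 lay at 0.07 on the pair. The median of the alpha-cell genes was 2.72 on replicates 2 and 4, -0.37 on replicate 1 and -0.84 on replicate 3. The median of 6 genes specific to a cells lay between -0.41 and -0.33 on all 3, but single genes varied. On replicate 1, replicate 3 and the averaged pair, MFA1 was at -0.39, 0.17 and -1.11, MFA2 at -1.55, -1.34 and -0.40, and AGA2 at -0.07, -1.20 and 0.25. STE2, BAR1 and STE6 lay below 0 on all 3. LEU2, a leucine synthesis gene often deleted in laboratory strains, had values on replicates 2 and 4 only, at 6.08 and 6.09. The part of these differences in the lysine values was not tested, so the lysine results are given with and without replicates 2 and 4.

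**Figure D1:**
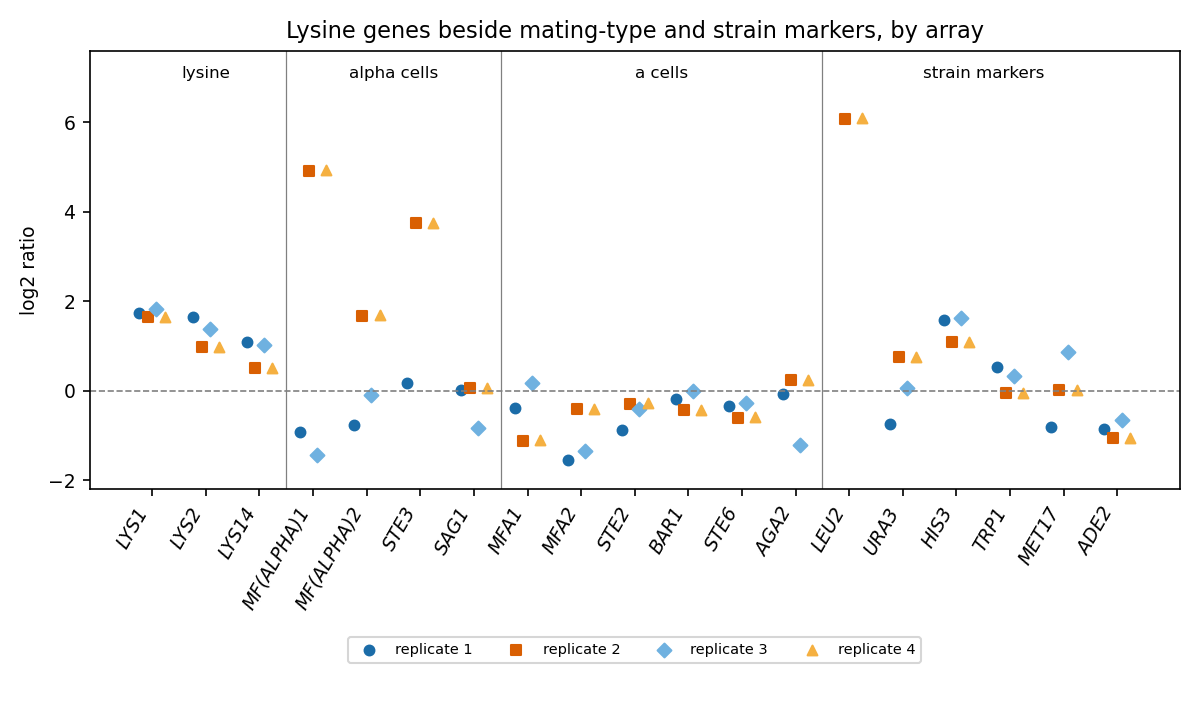
Log2 ratio on each of the 4 arrays for LYS1, LYS2 and LYS14, for genes specific to alpha cells or to a cells, and for genes commonly deleted in laboratory strains; each point is 1 array. Replicates 2 and 4 lie on top of each other and reach 4.92 or more at MF(ALPHA)1 and LEU2, while LYS1 lies between 1.65 and 1.83 on all 4 arrays.

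LYS1 and LYS2 rose in the strain labelled GCN2c, and no lysine gene fell. The mean ratio was above 0 for all 9 genes, where 44.1% of all genes tested had a mean above 0. On all 3 replicates 7 of the 9 genes were above 0, against 18.5% of genes with 3 values, and the exceptions were LYS4 and LYS5. With the sign of the Cy3 pair turned, 8 of the 9 means stayed above 0, LYS20 only at 0.03 and LYS9 at 0.09. LYS20 then ranked 3088 of 6130, so at least 3088 of all genes tested had a turned mean above 0. With the pair turned, 0 of the 9 genes were above 0 on all 3 replicates, against 13.9% of genes. That 0 was fixed by the values as deposited, because the 7 genes fall below 0 on the turned pair. LYS4 and LYS5 were not above 0 on replicate 1. The count therefore does not bear on the direction of the pair. The genes past the threshold were 2 of 9, where 1.73% of all genes tested rose and 0.326% fell. At an unadjusted p under 0.05 limma left 4 higher and 0 lower lysine genes, where 10% and 10.7% of all genes tested passed in those directions. With each array centred on its median this left 7 higher and 0 lower lysine genes, where 11.8% and 8.84% of all genes passed.

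The median lysine gene was at 0.40 and 0.58 on the Cy5 arrays and 0.51 on the averaged Cy3 pair, and these 3 medians averaged 0.50 ± 0.09 (SD, n = 3), or 0.49 without the Cy3 pair. The median of all genes tested was -0.03, -0.05 and -0.09 in the same order. The genes ranged from LYS4, at 0.10, to LYS1, at 1.74. In the distribution of all genes tested, LYS1 ranked 81 from the top of 6130, LYS2 ranked 143 and LYS14 ranked 347. LYS20, LYS12, LYS5, LYS21 and LYS9 lay close together, between ranks 826 and 1016, and LYS4 ranked 2142. With the Cy3 pair turned LYS2 ranked 223, LYS1 ranked 255 and LYS14 ranked 385, so the ranks and the order of LYS1 and LYS2 depend on the direction taken for that pair.

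**Figure D2:**
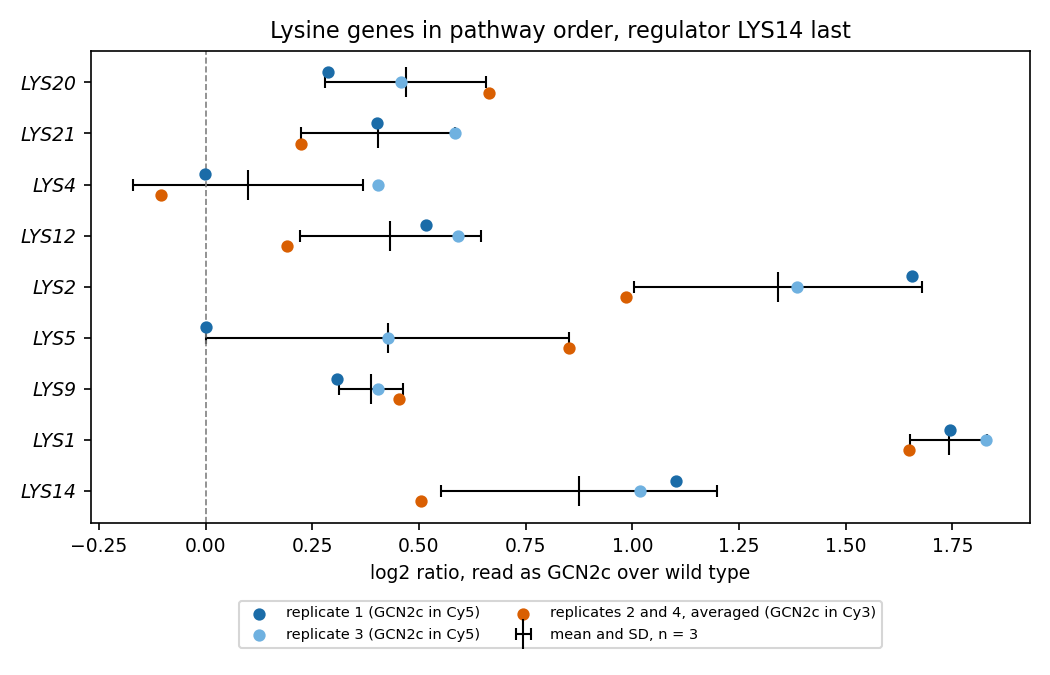
Log2 ratio of the 9 lysine genes in the order of the pathway, with the activator gene LYS14 last; points are replicate 1, replicate 3 and the average of replicates 2 and 4, and the bars are the mean and SD over these 3. LYS1 and LYS2 lie furthest to the right, LYS9 has the narrowest spread with an SD of 0.07, and LYS4 straddles 0.

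The opening step, homocitrate synthase, has a pair of isozymes encoded by LYS20 and LYS21. LYS20 (YDL182W) was at 0.29 and 0.46 on the Cy5 arrays and at 0.66 and 0.67 on the Cy3 pair. Its mean was 0.47 ± 0.19 (SD, n = 3; 95% interval 0.01 to 0.93; limma adjusted p = 0.237). LYS21 (YDL131W) was at 0.40 and 0.58 on the Cy5 arrays and at 0.22 and 0.23 on the Cy3 pair. Its mean was 0.40 ± 0.18 (SD, n = 3; 95% interval -0.06 to 0.86; limma adjusted p = 0.287). Both genes were above 0 on every array and neither passed the threshold. Without the Cy3 pair LYS20 stood at 0.37 and LYS21 at 0.49 (adjusted p = 0.247 and 0.164).

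The isozymes kept no fixed order. LYS20 minus LYS21 was -0.12 and -0.13 on the Cy5 arrays but 0.44 on the Cy3 pair. The mean difference was 0.07 ± 0.32 (SD, n = 3; exact two-sided sign-flip p = 1, in a design that cannot go under 0.25). The sign of this difference thus followed the dye orientation, which cannot be told apart from the other ways in which replicates 2 and 4 stood apart. The isozymes are closely similar proteins, and how far their spots share signal was not tested.

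LYS4 encodes homoaconitase, an iron-sulfur enzyme of the mitochondrion. The gene (YDR234W) gave -0.002 and 0.41 on the Cy5 arrays and -0.11 and -0.10 on the Cy3 pair, so it was the 1 lysine gene with values on both sides of 0. Its mean of 0.10 ± 0.27 (SD, n = 3) had a 95% interval of -0.39 to 0.59 (limma adjusted p = 0.815), and without the Cy3 pair the ratio was 0.20 (adjusted p = 0.535). LYS12 encodes homoisocitrate dehydrogenase, which completes the chain lengthening. The gene (YIL094C) was at 0.52 and 0.59 on the Cy5 arrays and at 0.19 on both of the Cy3 pair. The LYS12 mean of 0.43 ± 0.21 was higher on every array but did not pass (95% interval -0.04 to 0.90; limma adjusted p = 0.272), and without the Cy3 pair it stood at 0.55 (adjusted p = 0.131).

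LYS2 encodes aminoadipate reductase, which commits aminoadipate to lysine by making the semialdehyde. The gene (YBR115C) was at 1.66 and 1.39 on the Cy5 arrays and at 0.98 and 0.99 on the Cy3 pair. All 4 arrays were high, with the arrays that carried GCN2c in Cy5 above the others. LYS2 rose by 1.34 ± 0.34 (SD, n = 3; 95% interval 0.82 to 1.87; limma adjusted p = 0.0496), which is 2.53-fold if the log base is 2. This call lay at the threshold. Leaving out replicate 1 gave an adjusted p of 0.0925, leaving out replicate 3 gave 0.169 and leaving out the Cy3 pair gave 0.0231 at a ratio of 1.52. The range was 0.0134 to 0.921 over 13 other ways of processing. Its low end came from the 4 columns as 4 replicates, which counts the Cy3 pair as 2 samples.

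LYS5 encodes the phosphopantetheinyl transferase that attaches the prosthetic group Lys2 needs for its activity. The gene (YGL154C) was at 0 and 0.43 on the Cy5 arrays and at 0.85 on both of the Cy3 pair. LYS5 had the widest spread of the 9 genes, with a mean of 0.43 ± 0.43 (SD, n = 3; 95% interval -0.15 to 1.00; limma adjusted p = 0.349), and stood at 0.21 without the Cy3 pair (adjusted p = 0.516). It was higher where GCN2c carried Cy3, the opposite of LYS2, so LYS2 and the gene for its activating enzyme were not highest on the same arrays.

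LYS9 encodes the saccharopine dehydrogenase that forms saccharopine from the semialdehyde and glutamate. The gene (YNR050C) was at 0.31 and 0.40 on the Cy5 arrays and at 0.45 on both of the Cy3 pair. This was the tightest set of values among the 9 genes, and the mean of 0.39 ± 0.07 (SD, n = 3) did not pass (95% interval -0.05 to 0.82; limma adjusted p = 0.283). Limma draws the spread of each gene toward that of all genes, so this interval is wider than the LYS9 values alone would give. Without the Cy3 pair LYS9 stood at 0.36 (adjusted p = 0.259).

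LYS1 encodes the saccharopine dehydrogenase that releases lysine in the last step. The gene (YIR034C) was at 1.74 and 1.83 on the Cy5 arrays and at 1.65 on both of the Cy3 pair, so all arrays were high and close to each other. LYS1 rose by 1.74 ± 0.09 (SD, n = 3; 95% interval 1.30 to 2.18; limma adjusted p = 0.0191), or 3.34-fold if the log base is 2. LYS1 passed in 12 of 13 other ways of processing, the exception being the one in which replicates 2 and 4 were turned. These 13 include fits that drop only replicate 2 or only replicate 4, and the 4 columns as 4 replicates, which gave the lowest adjusted p. Without the Cy3 pair LYS1 stood at 1.79 with an adjusted p of 0.0129, within a range of 0.00229 to 0.942 over these 13. In that fit LYS1, LYS2 and LYS14 were called higher, 3 of the 9, where 4.55% of genes were called higher and 1.33% lower.

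LYS14 encodes the activator of the LYS genes that responds to the semialdehyde. The gene (YDR034C) was at 1.10 and 1.02 on the Cy5 arrays and at 0.50 and 0.51 on the Cy3 pair. Every array was above 0, with the Cy5 arrays clearly the higher. The mean was 0.88 ± 0.32 (SD, n = 3; 95% interval 0.36 to 1.39), and it did not pass (limma adjusted p = 0.111). Without replicates 2 and 4 LYS14 stood at 1.06 and passed (adjusted p = 0.0397). The range over the 13 other ways of processing went from 0.0327, with the 4 columns as 4 replicates, to 0.921. Without that pair both remaining arrays carry GCN2c in Cy5, so dye and strain cannot be told apart.

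**Figure D3:**
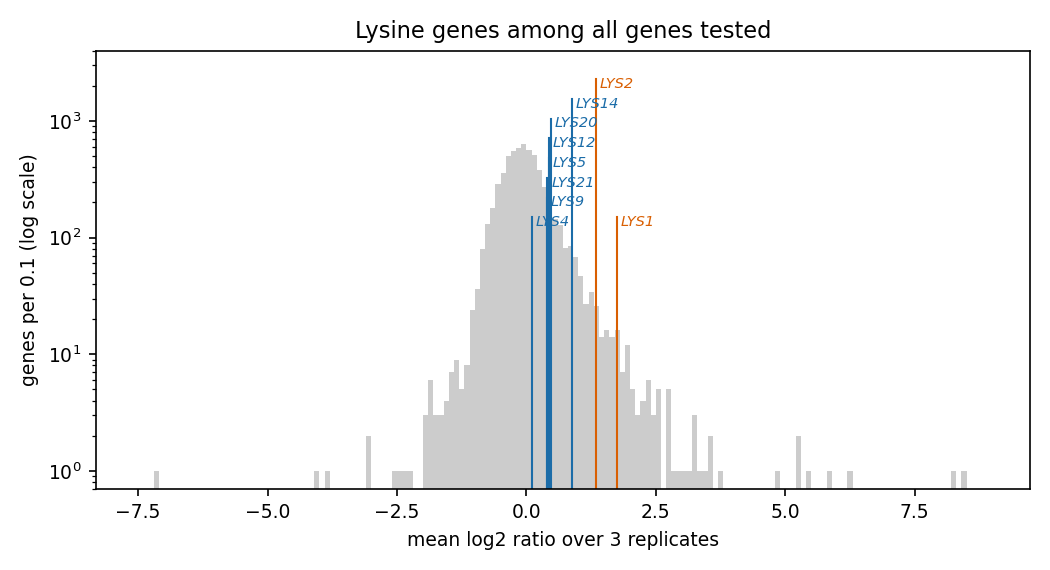
Mean log2 ratio over 3 replicates for all 6130 genes tested, in bins of 0.1 on a log-scaled count axis, with each lysine gene as a vertical line; line heights are set for legibility only. LYS1 at 1.74 and LYS2 at 1.34 (orange, past the threshold) lie in the right tail, and the 7 other lysine genes (blue) lie between 0.10 and 0.88.

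In the order of their means, LYS1 stood above LYS2 by 0.40 ± 0.29 (SD, n = 3), and the gap ranged from 0.09 to 0.66 over the replicates. LYS2 stood above LYS14 by 0.47 ± 0.09, with a gap of 0.37 to 0.55. These were differences in ratio, not in level, and they kept their sign on every replicate as deposited. With the Cy3 pair turned LYS2, at 0.69, stood above LYS1, at 0.64. Below LYS14 no neighbours in the order differed beyond their spread on every replicate: LYS14 exceeded LYS20 by 0.41 ± 0.50, and neighbours among LYS20, LYS12, LYS5, LYS21 and LYS9 were at most 0.04 apart in the mean.

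Along the pathway, the 4 genes of the steps up to 2-oxoadipate, LYS20, LYS21, LYS4 and LYS12, had medians of 0.34 and 0.52 on the Cy5 arrays and 0.21 on the averaged Cy3 pair. The 4 genes that act from aminoadipate onward, LYS2, LYS5, LYS9 and LYS1, had medians of 0.98, 0.91 and 0.92. The later genes were thus higher in their median on every replicate as deposited. On the Cy3 pair that order would reverse if the pair were turned. LYS5 and LYS9 had means within the range of the early genes. With 4 genes a median is the midpoint of the middle values, on replicate 1 those of LYS9 (0.31) and LYS2 (1.66), with no gene near it. This split was made with the values known and was not tested.

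The Cy5 arrays and the Cy3 pair gave unequal ratios for some lysine genes. Without an independent second Cy3 sample, dye orientation cannot be told apart from the other ways in which replicates 2 and 4 stood apart. The average of replicates 2 and 4 was lower than the mean of replicates 1 and 3 by 0.55 for LYS14 (0.51 against 1.06) and by 0.54 for LYS2 (0.99 against 1.52), higher by 0.64 for LYS5 (0.85 against 0.21), and lower by 0.14 for LYS1. With dye orientation as a term in the fit, the ratios were 1.72 for LYS1, 1.25 for LYS2 and 0.78 for LYS14. All 3 passed then, with adjusted p of 0.00854, 0.0207 and 0.0438, where 5.44% of genes were called higher and 4.4% lower. That fit takes its spread from replicates 1 and 3 alone.

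**Figure D4:**
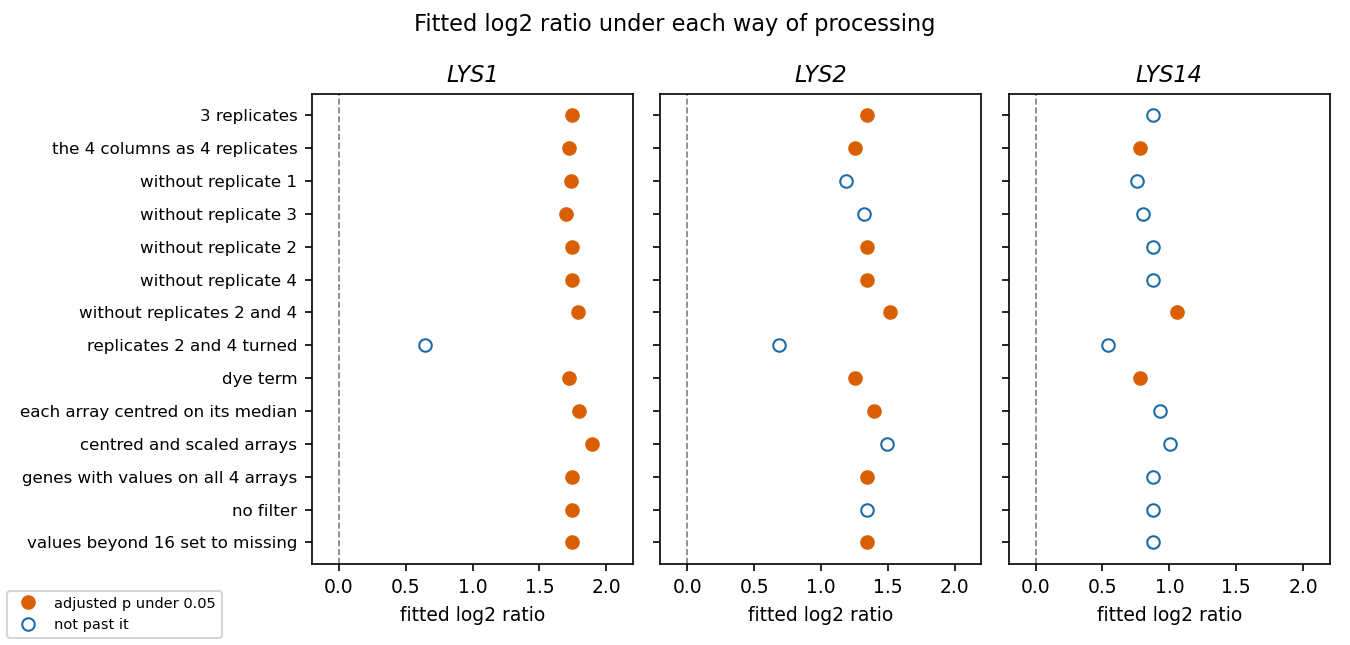
Fitted log2 ratio of LYS1, LYS2 and LYS14 under the reported processing (top) and 13 others, with filled points at an adjusted p under 0.05. LYS1 stays between 1.70 and 1.89 except with replicates 2 and 4 turned, where it is 0.64, while LYS2 and LYS14 move across the threshold.

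The one-class SAM test that the design text names was also run. On the 3 replicates it called LYS1, LYS2 and LYS14 higher, with 4.6% of genes called higher and 0.884% lower. On the 4 columns as if independent it called those 3 genes with LYS9 and LYS20, with 11.3% called higher and 23.1% lower. Limma on the 4 columns called the same 5 lysine genes higher, where 7.7% of genes were called higher and 9.62% lower. None of these 3 runs called a lysine gene lower. LYS4, LYS5, LYS12 and LYS21 were called by neither SAM run and by none of the 13 other limma fits.

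Genes around the pathway, 16 in all, were also measured. They cover aminotransferases, lysine and 2-oxoacid carriers, regulators and lysyl-tRNA synthetases. ODC2 alone rose, and none fell, where 1.73% of all genes tested rose and 0.326% fell. At an unadjusted p under 0.05 limma left 5 higher and 0 lower, where 10% and 10.7% of all genes passed. SAM on the 3 replicates called 3 higher and 0 lower, where 4.6% and 0.884% of all genes were called. The median of the 16 was 0.37 and 0.31 on the Cy5 arrays and 0.13 on the averaged Cy3 pair.

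ODC2 encodes a carrier that moves 2-oxoadipate and 2-oxoglutarate across the inner mitochondrial membrane. It was at 2.07 and 2.16 on the Cy5 arrays and at 1.43 and 1.44 on the Cy3 pair, all far above 0. Its mean of 1.89 ± 0.40 (SD, n = 3; limma adjusted p = 0.0249) exceeded that of every LYS gene. On the averaged Cy3 pair, however, ODC2 at 1.43 lay below LYS1 at 1.65. The ODC2 paralogue ODC1 carries the same acids. It was at -0.34 and 0.37 on the Cy5 arrays and at 0.69 on both of the Cy3 pair. The ODC1 mean of 0.24 did not pass (limma adjusted p = 0.642).

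The aminotransferase gene ARO8, whose enzyme makes aminoadipate from 2-oxoadipate besides acting on aromatic amino acids, was at 1.35 and 0.99 on the Cy5 arrays and at 0.91 on both of the Cy3 pair. ARO9, which encodes another aromatic aminotransferase, was at 1.09 and 1.49 on the Cy5 arrays and at 0.90 on both of the Cy3 pair. Both genes were high on every array and stayed just short of the threshold, at means of 1.08 and 1.16 (limma adjusted p = 0.0643 and 0.0631). They passed without replicates 2 and 4 (adjusted p = 0.0388 and 0.0328) and with genes measured on all 4 arrays only (adjusted p = 0.0456 and 0.0439). They did not pass without replicate 1 (adjusted p = 0.171 and 0.0998) or without replicate 3 (adjusted p = 0.257 and 0.326). Nor did they pass with centred and scaled arrays, with no filter or with the Cy3 pair turned.

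The lysine carriers of the plasma membrane did not move as a group. LYP1, the lysine permease gene, was at -0.75 and -0.66 on the Cy5 arrays and at 0.31 on both of the Cy3 pair, so its sign differed between them (mean -0.37, adjusted p = 0.484). CAN1, the arginine permease gene whose product also takes up lysine, was at 1.15 and 0.89 on the Cy5 arrays and at 0.33 on both of the Cy3 pair, above 0 on every array, with a mean of 0.79 (adjusted p = 0.154, and 0.0457 without replicates 2 and 4). ALP1, the gene of a related basic amino acid permease, was at 0.11 and -0.59 on the Cy5 arrays and at -0.43 on both of the Cy3 pair (mean -0.31, adjusted p = 0.468). Among the vacuolar carriers of basic amino acids, VBA2 was at 0.41 and 0.35 on the Cy5 arrays and at 0.82 on the averaged Cy3 pair (mean 0.53, adjusted p = 0.218). KRS1, the cytosolic lysyl-tRNA synthetase gene, was at 0.51 and 0.56 on the Cy5 arrays and at -0.21 on both of the Cy3 pair (adjusted p = 0.519). CCS1, the gene of a copper chaperone once named LYS7, was at 0.34 and 0.36 on the Cy5 arrays and at -0.999 on the averaged Cy3 pair. YPQ1, of a vacuolar basic amino acid carrier, was at 0.39 and 0.24 on the Cy5 arrays and at -0.61 on both of the Cy3 pair. LYP1, KRS1, CCS1 and YPQ1 were the 4 genes of the list whose sign differed between the Cy5 arrays and the Cy3 pair. KRS1, ODC1, CCS1 and YPQ1 were named after their values were seen. The 9 genes outside the 7 whose means were largest in size, with sign ignored, had means between -0.28 and 0.29, these 4 included. Their replicate values lay between -0.999 and 0.69.

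**Figure D5:**
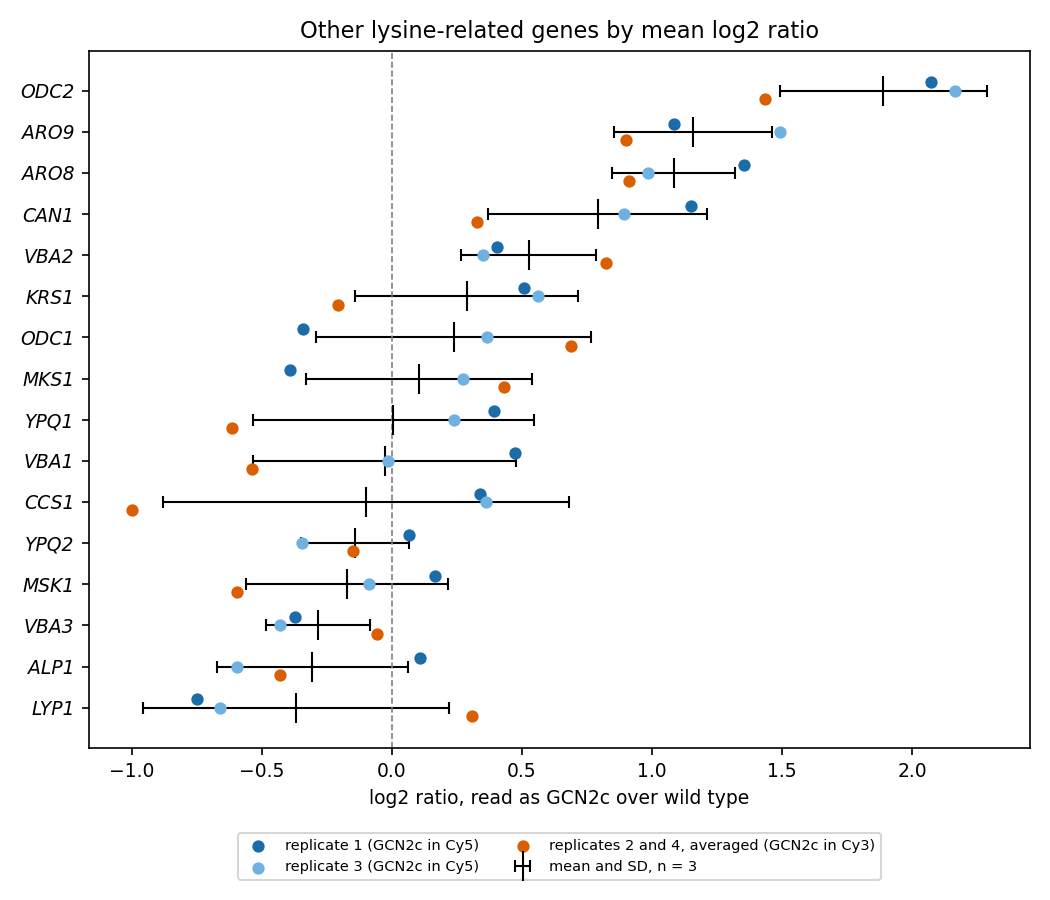
Log2 ratio of the 16 other lysine-related genes, ordered by mean; points are replicate 1, replicate 3 and the average of replicates 2 and 4, and the bars are the mean and SD over these 3. ODC2, ARO9 and ARO8 lie above 0.89 on every replicate, while LYP1, KRS1, CCS1 and YPQ1 change sign between the Cy5 arrays and the Cy3 pair.

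LYS2 and HIS3 are also common selection markers that laboratory strains may lack. HIS3 was at 1.59 and 1.64 on the Cy5 arrays and at 1.08 on the averaged Cy3 pair, where LYS2 was at 1.66, 1.39 and 0.99. HIS3 also rose, with a mean of 1.44 (limma adjusted p = 0.0377). Whether use as a marker has a part in these values was not tested. Among the other marker genes with values on at least 3 arrays, URA3 ranged from -0.74 to 0.76, MET17 from -0.81 to 0.87, TRP1 from -0.04 to 0.54 and ADE2 from -1.05 to -0.65. None of them nor LYS2 reached 2 in size, unlike LEU2.

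The genes whose values lay nearest to each gene that rose were found by Euclidean distance over the 3 replicates among 5997 genes with 3 values. Nearest to LYS1 were MET10, a sulfite reductase subunit gene, at a distance of 0.11, UGA3, an activator gene of GABA use, at 0.18, and AFR1 at 0.19. MET10 was at 1.65 and 1.87 on the Cy5 arrays and at 1.63 on the averaged Cy3 pair. Nearest to LYS2 were MTG2 at 0.14, OCH1, a Golgi mannosyltransferase gene, at 0.14, and MEP1, an ammonium permease gene, at 0.16. With 3 values per gene such likeness is a description of these arrays only.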

How the data were processed

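Per the labels' protocols, cDNA made from 30 µg of total RNA of each strain was labelled indirectly with Cy3 or Cy5. The values are log ratios the authors deposited, taken here to be log2, 1 per open reading frame. Per the labels, defective spots were flagged, and so were spots whose signal in a channel stayed under 2 times its local background. For scanner, background correction, normalization, log base and direction: not given in the sources used here. No intensity was used, so the number of arrays limits the precision. The arrays held 6057 to 6177 values with medians of -0.09 to -0.03, and 1 to 6 values per array lay beyond 16, none in a lysine gene. Of 6211 names 5662 matched an R64 locus tag.

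Replicates 2 and 4 were averaged (SD of their differences 0.0638, against 0.852 between replicates 1 and 3). Genes with values on at least 3 arrays were fitted with an intercept in limma 3.58.1 (R 4.3.3; eBayes, prior degrees of freedom 3.37, two-sided). The fit was tested on simulated data. The design text calls the arrays biological replicates. The p-values measure the spread between them, which eBayes draws toward the spread of all genes (prior degrees of freedom 3.37 against 2 residual). Genes named were the 9 members, GCN2, GCN4, the lysine-related genes past the threshold and the 6 next in size. Strain and mating-type markers and the 3 nearest genes to each called member were also named. ODC1, KRS1, CCS1 and YPQ1 were added after their values were seen. Members and lists were chosen with earlier results of these data known. Promoter motifs were not analysed here. Of the lysine-related genes first listed, 1 is not reported here. Alternatives covered replicates, direction, dye, scaling, filters and SAM.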

Additional observations from a re-analysis of the deposited data

How the results depend on the processing

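LYS1 kept its direction in all 13 other limma fits and its call in 12, and LYS2 kept its direction in all 13 and its call in 8. These tallies include fits that could hardly differ from the reported one, as they drop only replicate 2 or only replicate 4. They also include the fit of the 4 columns as 4 replicates, which counts the near-identical pair as 2 samples. With replicates 2 and 4 turned, no gene passed limma in either direction (0 rose, 0 fell, 250 at an unadjusted p under 0.05, 0 of them lysine genes; SAM was not run on turned arrays): LYS1 stood at 0.64, LYS2 at 0.69, LYS5 at -0.14, VBA2 at -0.023, GCN2 at 0.13, the median of the lysine genes at 0.16 and LYS20 minus LYS21 at -0.23. Lysine genes that rose then numbered 0, and lysine-related genes 0. Without replicates 2 and 4, 273 genes rose and 80 fell, 4 lysine-related genes rose, and LYS20 minus LYS21 was -0.12. Leaving out 1 replicate gave 61 to 117 genes that rose, 13 to 31 that fell, 1 to 2 lysine genes that rose, and LYS2 between 1.19 and 1.34. The counts without replicate 3 were 61 and 13, and LYS2 lost its call there and without replicate 1. Leaving out 1 replicate put LYS4 between -0.053, without replicate 3, and 0.15.

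With the 4 columns as 4 replicates 472 genes rose and 590 fell, with 5 lysine and 4 lysine-related genes higher. With a dye term 326 rose and 264 fell, with 3 lysine-related genes higher. SAM called 276 higher and 53 lower on the 3 replicates, with 3 lysine-related genes higher, and 678 and 1385 on the 4 columns, with 5 lysine and 5 lysine-related genes higher. With genes on all 4 arrays only, 40 fell and 3 lysine-related genes rose. LYS2 stood at 1.49 with centred and scaled arrays (adjusted p = 0.0633) and at 1.34 with no filter (adjusted p = 0.0555), so 1 lysine gene rose in each. The causes of these shifts were not tested. Each array pairs both strains, so the test of the mean ratio against 0 already uses that pairing. The labels form 1 group, so no further pairing of samples was possible. The promoter motif search was not run.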
